A study of Homo sapiens with 12 samples.

Results

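A set of 9 genes that carry an interferon signal from the cell surface to the nucleus was examined in 786-O cells. They were chosen by symbol for their roles in the pathway, with earlier results of these data known, as were the gene lists used below. Counts of these genes and lists beside shares of all genes are therefore a description and no independent test. The genes were IFNAR1, IFNAR2, JAK1, TYK2, STAT2, IRF9, IRF1, IRF7 and SOCS1, out of 17085 genes in the deposited tables. All 9 had enough counts to be tested. 786-O is an established human clear cell renal carcinoma line grown as a monolayer. Its cells were treated for 24 h with the solvent DMSO, with everolimus (EVER), with SGI-1027 at 1.5 µM (SGI), or with 5 µM everolimus and 1.5 µM SGI-1027 together (COMB), and each group had 3 RNA sequencing libraries. The everolimus-only dose was 5 µM by the sample labels and by the paper's RNA sequencing methods. The series' design text and treatment protocol gave 10 µM. It is therefore uncertain whether EVER and COMB had the same everolimus dose, which touches the contrast of COMB with EVER and the interaction. Everolimus inhibits mTOR complex 1, and SGI-1027 is a quinoline compound that inhibits DNA methyltransferases. All values came from a single cell line, and no source stated that the 3 libraries of a group were separate cultures, so the tests measured the spread between libraries, which may be technical.

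Type I interferons bind a receptor made of the IFNAR1 and IFNAR2 chains, which hold the kinases TYK2 and JAK1 on their inner side. These kinases phosphorylate STAT2 and its partner STAT protein, which join IRF9 in the complex ISGF3 and switch on genes that carry an interferon-stimulated response element (ISRE). IRF1 and IRF7 are transcription factors that are themselves interferon targets and widen the response, and SOCS1 is an induced inhibitor of the kinases. Transcript levels alone, as measured here, do not report phosphorylation or protein.

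Promoter sequence is shown for the 3 matched genes that rose in every treatment and encode transcription factors or their subunits, and for the inhibitor SOCS1. RefSeq windows of the GRCh38.p14 build, from 250 bases before to 50 bases after a transcription start, were matched for 7 of the 9 genes, and IRF7 and IFNAR2 were not matched. The 120 bases from position -150 to -31 relative to the start are printed 5′ to 3′ on the gene's strand. Capitals mark a match to the ISRE letters, GAAA and again GAAA with 2 bases of any kind between them, or to the gamma-activated sequence (GAS) letters, TTC and GAA with 3 bases of any kind between them, searched on both strands. The stretches lie at chr12:56360138-56360257 for STAT2 (minus strand), chr14:24161115-24161234 for IRF9 (plus strand), chr5:132490804-132490923 for IRF1 (minus strand) and chr16:11256235-11256354 for SOCS1 (minus strand).
STAT2: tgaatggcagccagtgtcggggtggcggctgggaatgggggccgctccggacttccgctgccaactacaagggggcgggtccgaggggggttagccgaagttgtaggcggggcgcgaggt
IRF9: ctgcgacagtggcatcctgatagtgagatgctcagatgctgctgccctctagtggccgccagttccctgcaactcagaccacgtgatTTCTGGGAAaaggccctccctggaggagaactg
IRF1: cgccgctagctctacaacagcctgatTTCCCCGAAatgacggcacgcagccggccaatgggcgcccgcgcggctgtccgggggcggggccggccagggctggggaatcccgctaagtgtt
SOCS1: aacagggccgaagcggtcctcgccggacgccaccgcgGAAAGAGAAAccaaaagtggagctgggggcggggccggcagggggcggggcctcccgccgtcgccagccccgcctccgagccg

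The IRF9 window held the GAS letters at -63 to -55, and the IRF1 window held them at -124 to -116. The SOCS1 window held the ISRE letters at -113 to -104. No match to either motif was found in the windows of STAT2, JAK1, TYK2 or IFNAR1. Over all 35116 windows of this length, 3.57% held the ISRE letters and 7.66% the GAS letters. A match describes letters in this window and shows no binding.

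The libraries held 37046231 to 41516976 counts. Levels in CPM (counts scaled to a common library size) were corrected by TMM library factors of 0.99 to 1.01, and FPKM values, which also divide by gene length, are those the authors deposited. Library DMSO 1 differed from the other DMSO libraries by a chi-square per gene of 10.1 and 12.8, against 3.55 between those libraries, and SGI 3 differed from the other SGI libraries by 16.0 and 15.7, against 2.999. Without both libraries, a setting chosen after seeing the data, the COMB log2 fold changes against DMSO were 2.36 for STAT2, 1.45 for IRF9, 2.98 for IRF7 and 0.56 for IRF1. Of 9 renal and epithelial markers, 8 stood at 9.02 FPKM or more in every library, while CA9 had 2 to 32 counts. The leukocyte marker PTPRC had at most 1 count, CLEC4C of plasmacytoid dendritic cells had none and the endothelial CDH5 had 0 to 3, whereas CSF1R had 121 to 231 counts. In bulk RNA, a change in the number of expressing cells and a change per cell cannot be told apart.

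STAT2, IRF9 and IRF7 rose past a log2 fold change of 1 in SGI and COMB, IRF1 rose less, the kinases moved slightly and the receptor chains did not pass the test against DMSO in either of these groups. Against DMSO, the quasi-likelihood test of edgeR, with p values adjusted by Benjamini-Hochberg over 12841 genes, called 7 of the 9 genes higher and 1 lower in EVER, where 27.2% and 29.2% of all tested genes were called. In SGI it called 6 higher and 0 lower, beside 32.0% and 30.6% of all genes. In COMB it called 5 higher and 0 lower, beside 32.8% and 33.4%. Under the study's cut-off (log2 fold change of 1 or more in size, unadjusted p under 0.05), the 3 genes STAT2, IRF9 and IRF7 were higher in SGI and in COMB and 0 were called in EVER, where 6.25%, 7.25% and 3.89% of all genes were called higher. The medians of the 9 log2 fold changes were 0.17, 0.31 and 0.23 in EVER, SGI and COMB, beside medians over all tested genes of 0.00, 0.02 and 0.01.

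**Figure D1:**
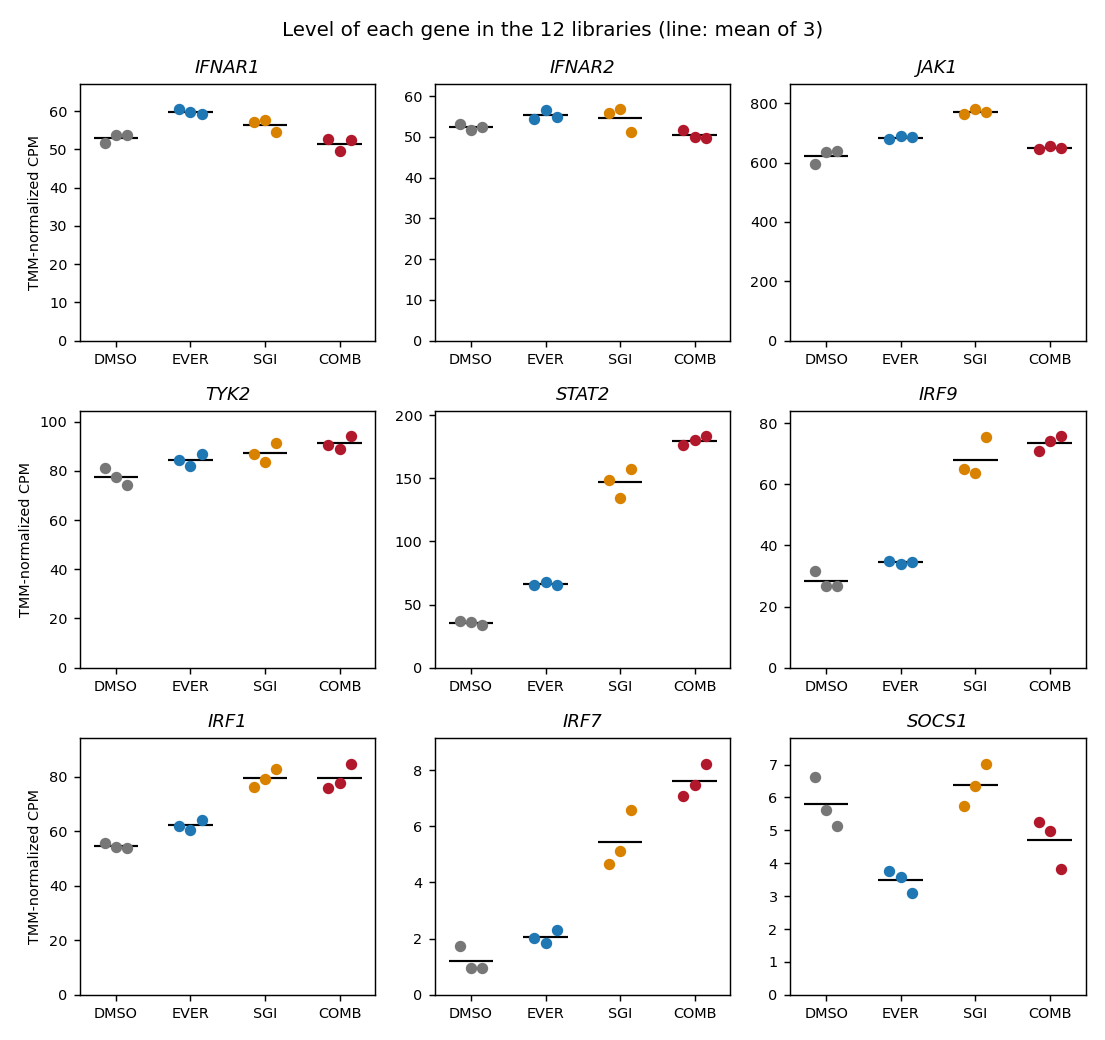
Level of each of the 9 genes in the 12 libraries, in TMM-normalized CPM on axes that start at 0, with a point for each library and a line at the mean of 3. STAT2 climbed from 33.9 to 36.7 CPM in DMSO to 176 to 183 CPM in COMB, while IFNAR1 and IFNAR2 stayed between 49.6 and 60.5 CPM in all groups.

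STAT2, the ISGF3 subunit that carries the transactivation domain, was higher in each treatment. Its level was 36.7, 35.9 and 33.9 CPM in the 3 DMSO libraries and 65.3, 67.6 and 65.5 CPM in EVER. It was 149, 134 and 157 CPM in SGI and 176, 180 and 183 CPM in COMB. No pair of groups overlapped. The fold changes against DMSO were 1.86 in EVER, 4.13 in SGI and 5.07 in COMB, with log2 values of 0.90 ± 0.05, 2.05 ± 0.05 and 2.34 ± 0.05 (± SE throughout for log2 values). The edgeR adjusted p values of these were 2.2e-10, 5.8e-15 and 3.0e-16. Only 0.942% of tested genes had a higher log2 fold change in COMB than STAT2.

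IRF9, the DNA-binding subunit of ISGF3, rose mainly where SGI-1027 was present. It stood at 31.6, 26.9 and 26.7 CPM in DMSO and at 35.0, 33.9 and 34.5 CPM in EVER. It reached 64.9, 63.7 and 75.5 CPM in SGI and 70.8, 74.1 and 75.7 CPM in COMB. Every treated library lay above every DMSO library, and SGI and COMB overlapped through the high SGI 3. The log2 fold change was 0.28 ± 0.07 in EVER (adjusted p = 0.0025, edgeR), 1.26 ± 0.07 in SGI and 1.37 ± 0.07 in COMB (edgeR adjusted p = 3.4e-11 and 6.6e-12). By GENCODE v29, 48.4% of the exon bases of IRF9 are shared with the same-strand locus AL136295.5, and how the counting treated such reads is not given in the sources used here, so its level is uncertain.

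IRF7, the factor that amplifies interferon transcription, had the lowest level of the 9 genes in DMSO, EVER and SGI. DMSO libraries had 1.74, 0.971 and 0.942 CPM, from 36 to 65 counts. EVER libraries had 2.03, 1.86 and 2.30 CPM, SGI libraries 4.64, 5.12 and 6.57 CPM and COMB libraries 7.09, 7.47 and 8.23 CPM. The 4 groups did not overlap. The fold change was 1.70 in EVER, 4.48 in SGI and 6.25 in COMB, with log2 values of 0.76 ± 0.22 (edgeR adjusted p = 0.0072), 2.16 ± 0.20 (4.1e-08) and 2.64 ± 0.20 (1.6e-09). DMSO 1 held the highest of the DMSO counts, and without it the EVER change was 1.10, which passed the study's cut-off.

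IRF1, a factor that activates both ISRE and gamma-interferon target genes, rose by less than 1.5-fold in each treatment. Its levels were 55.7, 54.3 and 53.7 CPM in DMSO, 62.1, 60.6 and 64.3 CPM in EVER, 76.2, 79.2 and 82.9 CPM in SGI and 76.0, 77.7 and 84.8 CPM in COMB. All treated libraries were above DMSO, and the SGI and COMB ranges overlapped. The log2 fold change was 0.19 ± 0.05 in EVER, 0.54 ± 0.05 in SGI and 0.54 ± 0.05 in COMB (edgeR adjusted p = 0.0034, 3.3e-08 and 2.4e-08). Opposite-strand exons of C5orf56 cover 22% of the exon bases of IRF1, and those of AC116366.3 cover 6.01%, so reads of these loci could count toward it if strand was not used.

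The receptor-bound kinases moved within a narrow range. JAK1, which serves IFNAR2 and many other cytokine receptors, had 597, 634 and 638 CPM in DMSO, 678, 688 and 687 in EVER, 765, 779 and 769 in SGI and 647, 656 and 648 in COMB. The order was SGI above EVER above COMB above DMSO, and no groups overlapped. Its log2 fold change was 0.13 ± 0.03 in EVER (edgeR adjusted p = 0.0021) and 0.31 ± 0.03 in SGI (2.8e-07). In COMB it was 0.06 ± 0.03 (edgeR adjusted p = 0.114), which did not pass. The COMB value of JAK1 passed with limma on log2 of FPKM plus 1 or 0.1 (0.08 in both, limma adjusted p = 0.0227 and 0.0262). TYK2, the kinase of IFNAR1, had 81.0, 77.4 and 74.2 CPM in DMSO, 84.5, 81.9 and 86.8 in EVER, 87.0, 83.6 and 91.2 in SGI and 90.5, 89.1 and 94.0 in COMB. Each treated library lay above the DMSO libraries, and SGI overlapped both EVER and COMB. The log2 fold changes of TYK2 were 0.12 ± 0.05, 0.17 ± 0.05 and 0.23 ± 0.05 in EVER, SGI and COMB (edgeR adjusted p = 0.032, 0.0038 and 2.3e-04). The EVER call of TYK2 was lost without DMSO 2, DMSO 3, EVER 1 or EVER 3 (adjusted p = 0.0744, 0.137, 0.0751 and 0.123, edgeR).

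IFNAR1, the low-affinity chain of the type I receptor, passed against DMSO in EVER. It had 51.6, 53.8 and 53.7 CPM in DMSO, 60.5, 59.8 and 59.2 in EVER, 57.0, 57.8 and 54.5 in SGI and 52.6, 49.6 and 52.4 in COMB. EVER lay above all other groups, SGI lay above DMSO, and COMB overlapped DMSO. The EVER log2 fold change was 0.17 ± 0.04 (edgeR adjusted p = 0.0030). The SGI and COMB values of 0.09 (95% interval -0.01 to 0.18) and -0.04 (-0.14 to 0.05) did not pass. The SGI value did pass without SGI 3 (0.11, edgeR adjusted p = 0.0469). It also passed with at least 10 counts in every library (0.10, edgeR adjusted p = 0.0494). The direct test of SGI against EVER gave -0.08 ± 0.04 (edgeR adjusted p = 0.188), so the SGI and EVER changes were not shown to differ.

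IFNAR2, the high-affinity chain, did not pass against DMSO in any group. It had 53.2, 51.6 and 52.3 CPM in DMSO, 54.3, 56.6 and 54.9 in EVER, 55.8, 56.7 and 51.1 in SGI and 51.6, 49.96 and 49.8 in COMB. EVER lay above DMSO, SGI overlapped it, and COMB lay below. The log2 values were 0.08 (95% interval -0.02 to 0.18) in EVER, 0.06 (-0.04 to 0.16) in SGI and -0.05 (-0.16 to 0.05) in COMB. With these intervals, a change of IFNAR2 as large as that of IRF1 in SGI lay outside the interval. Upper-quartile factors moved the median log2 fold change of all genes by 0.07 in EVER, 0.05 in SGI and 0.06 in COMB. With this shift common to all genes, the COMB values of both chains turned to 0.013 for IFNAR1 and 7.4e-04 for IFNAR2, and the IFNAR1 value in SGI (0.14), the IFNAR2 value in EVER (0.15) and the JAK1 value in COMB (0.12) passed (edgeR adjusted p = 0.0107, 0.0132 and 0.0046). Without DMSO 1 and SGI 3, the IFNAR2 value in SGI was 0.11 (edgeR adjusted p = 0.0444). Its exon bases are shared by 44.2% with the same-strand AP000295.1 and by 39.1% with the opposite-strand IL10RB-DT, which makes its level uncertain.

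SOCS1, the feedback inhibitor of the kinases, was the gene that fell in EVER. It had 6.63, 5.61 and 5.13 CPM in DMSO and 3.76, 3.59 and 3.11 CPM in EVER. It had 5.75, 6.34 and 7.03 CPM in SGI and 5.26, 4.99 and 3.84 CPM in COMB. EVER lay below every other library, while SGI and COMB each overlapped DMSO. The EVER change fell by 0.73 ± 0.14 on the log2 scale, a level 1.66 times lower (edgeR adjusted p = 3.1e-04). The values of 0.14 ± 0.14 in SGI and -0.30 ± 0.14 in COMB did not pass (edgeR adjusted p = 0.388 and 0.0677). The COMB value passed without DMSO 3 or without COMB 1 (-0.37 and -0.38, edgeR adjusted p = 0.0413 and 0.0424).

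**Figure D2:**
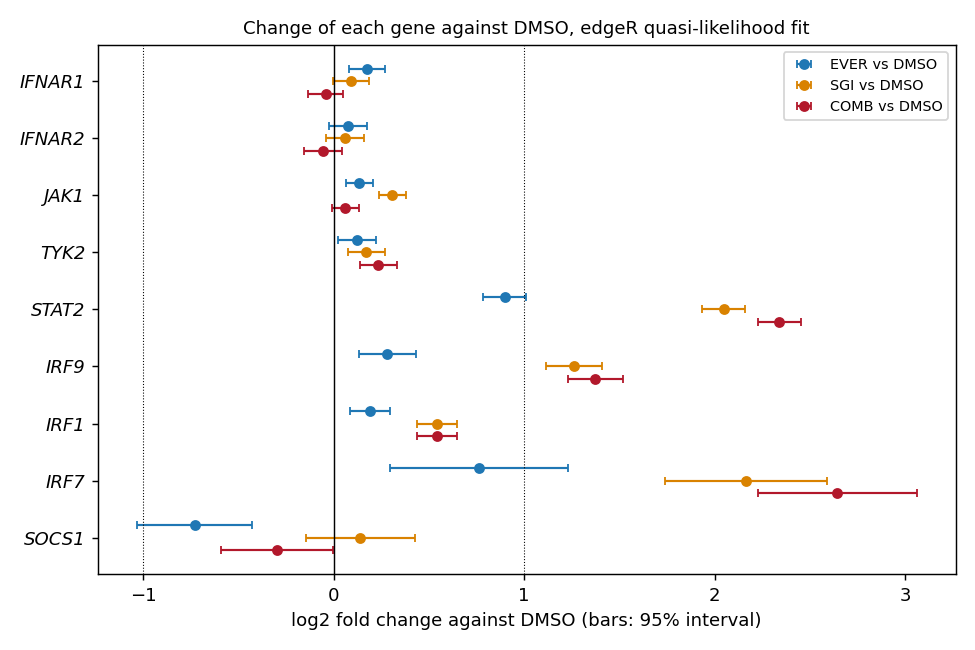
Log2 fold change of each gene against DMSO in EVER, SGI and COMB, with 95% intervals from the edgeR fit; dotted lines mark an absolute log2 fold change of 1. STAT2, IRF9 and IRF7 lie past 1 in SGI and COMB, and the SOCS1 value of -0.73 in EVER is the one decrease that passed.

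Per gene length, JAK1 was the most abundant of the 9 transcripts in every group, with mean FPKM of 112 ± 3.14 (SD, n = 3) in DMSO and 118 ± 1.12 in COMB. In DMSO, IRF9 at 15.9 ± 1.68 FPKM, TYK2 at 15.3 ± 0.80 and IRF1 at 15.2 ± 0.42 followed and did not differ beyond their spread. IFNAR2 (12.1 ± 0.29 FPKM), IFNAR1 (8.33 ± 0.13) and STAT2 (7.44 ± 0.36) came next, with SOCS1 (4.66 ± 0.66) and IRF7 (0.620 ± 0.24) lowest. In COMB, IRF9 at 41.7 ± 1.43 FPKM and STAT2 at 38.2 ± 0.71 stood next below JAK1, so STAT2 had moved from the seventh place to the third. IRF7 (3.91 ± 0.30 FPKM) and SOCS1 (3.83 ± 0.62) no longer differed beyond their spread.

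The balance between the ISGF3 subunits also shifted. The ratio of STAT2 to IRF9 in FPKM was 0.470 ± 0.032 (SD, n = 3) in DMSO, 0.719 ± 0.025 in EVER, 0.809 ± 0.043 in SGI and 0.917 ± 0.015 in COMB, and the libraries of the 4 groups did not overlap. The ratio of the receptor chains, IFNAR2 to IFNAR1, was 1.46 ± 0.057 in DMSO, 1.36 ± 0.036 in EVER, 1.42 ± 0.036 in SGI and 1.44 ± 0.043 in COMB. The EVER libraries lay below the DMSO range of 1.41 to 1.52 in this receptor ratio, and SGI and COMB overlapped it. JAK1 to TYK2 was 7.34 ± 0.57, 7.39 ± 0.24, 8.06 ± 0.41 and 6.50 ± 0.22 in the same order. These ratios rest on the deposited gene lengths and are a description, with no test.

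**Figure D3:**
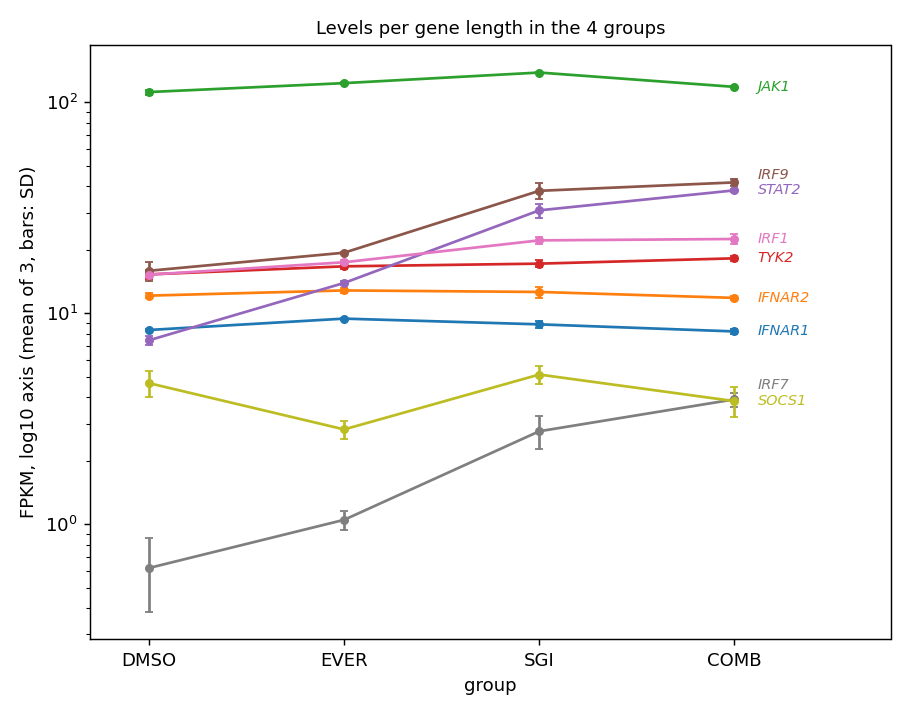
Mean FPKM of each gene in the 4 groups on a log10 axis, with SD bars over 3 libraries. STAT2 crossed above IRF1, TYK2 and both receptor chains between DMSO and SGI, and IRF9 stayed just above it at 41.7 FPKM in COMB.

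Whether both drugs together moved these genes further than either alone was asked by the direct contrasts. Against EVER, COMB was higher in 5 of the 9 genes and lower in 2, where 20.1% and 19.2% of all genes were called. The higher genes were STAT2 (log2 1.44 ± 0.05), IRF9 (1.09 ± 0.07), IRF7 (1.88 ± 0.18), IRF1 (0.35 ± 0.05) and SOCS1 (0.43 ± 0.15). The lower genes were the receptor chains IFNAR1 (-0.22 ± 0.04; edgeR adjusted p = 8.0e-04) and IFNAR2 (-0.13 ± 0.05; 0.0348). The SOCS1 call (edgeR adjusted p = 0.0262) was lost without EVER 2, EVER 3, COMB 1 or COMB 2 (0.0511, 0.106, 0.107 and 0.0842), and the IFNAR2 call was lost without DMSO 2 or any 1 of the EVER or COMB libraries (0.0532 to 0.122). JAK1 (-0.07 ± 0.03) and TYK2 (0.11 ± 0.05) did not pass, and both did without DMSO 1 and SGI 3 (-0.07 and 0.11; edgeR adjusted p = 0.0136 and 0.0116). By the study's cut-off, 3 genes (STAT2, IRF9 and IRF7) were higher, where 2.44% of all genes were.

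Against SGI, 1 gene was higher and 3 were lower in COMB, where 9.40% and 10.2% of all genes were called. STAT2 was 1.23-fold higher (log2 0.29 ± 0.05, edgeR adjusted p = 3.0e-04). JAK1 was 1.19 times lower (-0.25 ± 0.03, 3.1e-05), SOCS1 was 1.36 times lower (-0.44 ± 0.14, 0.0328) and IFNAR1 was 1.10 times lower (-0.13 ± 0.04, 0.0461) by the edgeR test. The IFNAR1 call was lost without any 1 of 10 libraries (adjusted p = 0.0578 to 0.213, edgeR), all but DMSO 1 and SGI 3, and the SOCS1 call without SGI 2, SGI 3, COMB 2 or COMB 3 (0.0560 to 0.165). IRF1 gave 0.00 (95% interval -0.10 to 0.10), and IRF9 gave 0.11 ± 0.07 (edgeR adjusted p = 0.267). IRF7 gave 0.48 ± 0.17 and lay just past the threshold (edgeR adjusted p = 0.0505), although its COMB libraries were all above SGI. Without SGI 3, which had the highest IRF9 and IRF7 of its group, the values were 0.19 for IRF9 and 0.64 for IRF7 (edgeR adjusted p = 0.0212 and 0.0102).

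The single drugs were also set against each other. SGI exceeded EVER in 6 of the 9 genes and was lower in 0, where 13.0% and 9.51% of all genes were called. These were STAT2 (log2 1.15 ± 0.05), IRF9 (0.98 ± 0.07), IRF7 (1.40 ± 0.19), IRF1 (0.35 ± 0.05), JAK1 (0.17 ± 0.03) and SOCS1 (0.87 ± 0.14), with edgeR adjusted p values of 9.6e-04 or less, and STAT2 and IRF7, 2 of the 9, passed the study's cut-off, where 1.53% of all genes did. The drugs act on different targets and their doses are not matched, so this contrast describes these doses.

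The interaction contrast asked whether the COMB log2 fold change differed from the sum of those of the single drugs. It was called below 0 for 5 of the 9 genes and above 0 for 0, where 22.1% and 23.6% of all genes were called. STAT2 gave -0.60 ± 0.07 (edgeR adjusted p = 3.1e-06), since the single drugs summed to 2.95 and COMB reached 2.34. JAK1 gave -0.38 ± 0.05 (3.9e-06) and IFNAR1 -0.31 ± 0.06 (7.1e-04) by edgeR. IRF1 gave -0.19 ± 0.07 and IFNAR2 -0.19 ± 0.07 (edgeR adjusted p = 0.0343 and 0.0274). The IRF1 call was lost without DMSO 2, DMSO 3, EVER 1, EVER 3, SGI 2, SGI 3, COMB 1 or COMB 2 (0.0516 to 0.101), and the IFNAR2 call without DMSO 2, EVER 2, SGI 1, SGI 2, COMB 2 or COMB 3 (0.0574 to 0.0749). IRF9 (-0.17 ± 0.10), IRF7 (-0.28 ± 0.28), TYK2 (-0.06 ± 0.07) and SOCS1 (0.29 ± 0.20) did not pass, and the IRF9 value of -0.25 did without DMSO 1 (edgeR adjusted p = 0.0283).

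The scale of addition mattered for STAT2. In CPM, EVER added 30.7 and SGI added 111 to the DMSO mean, a sum of 142, and COMB added 144. The difference of 2.51 ± 7.08 CPM (SE) was within its error, so the shortfall of STAT2 in log2 was not detected in CPM. For JAK1 both scales gave a shortfall, with single-drug increases of 61.1 and 148 CPM, a COMB increase of 27.1 CPM and a difference of -182 ± 14.6 CPM. The difference was -11.7 ± 1.61 CPM for IFNAR1, -6.99 ± 2.01 CPM for IFNAR2 and -7.66 ± 3.54 CPM for IRF1. Of the genes with no called interaction, IRF9 gave -0.613 ± 4.31 CPM, TYK2 -2.97 ± 3.59 CPM and SOCS1 0.63 ± 0.75 CPM, within their errors. IRF7 gave 1.31 ± 0.73 CPM, above the sum of the single drugs, whereas its log2 interaction was -0.28.

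**Figure D4:**
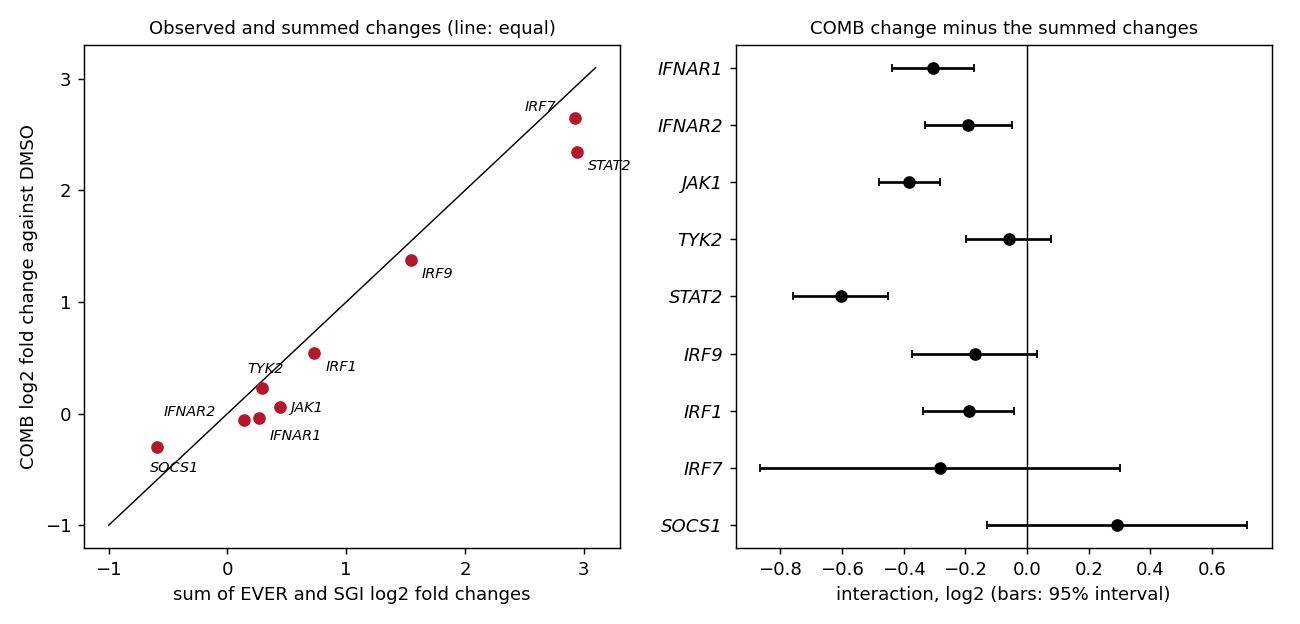
Left, log2 fold change of COMB against DMSO plotted on the sum of the EVER and SGI changes for each gene, with the line of equality; right, the difference between them with 95% intervals. STAT2 lies furthest below the line at -0.60, and the intervals of IRF9, IRF7, TYK2 and SOCS1 cross 0.

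Few transcripts of the ligands were counted. Of 22 interferon genes listed, 8 had a row in the tables, 4 of these had any count and 1 had enough to be tested. A listed gene without a row has no value here, which is not a count of 0, so its level is unknown. IFNB1, the first type I interferon made by most cells, had between 0 and 4 counts a library, IFNA1 had 1 count in 1 library, and IFNL1 had 1 count in 2 libraries. IFNE, a type I interferon of epithelia, had 20, 17 and 8 counts in DMSO, 29, 52 and 45 in EVER, 27, 12 and 36 in SGI and 29, 17 and 18 in COMB. Its EVER change of 1.48 ± 0.39 in log2 passed (edgeR adjusted p = 0.0034), and its SGI value of 0.74 ± 0.41 and COMB value of 0.51 ± 0.42 did not. A library with 0 counts of a ligand allows up to 3 counts at this depth, which covers counting error only.

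Genes that ISGF3 is known to drive were counted from a hand-written list. Apart from STAT2, IRF9 and IRF7, the list held 48 tested type I interferon targets, of which 28 were higher and 1 lower in EVER, 48 higher in SGI and 47 higher in COMB, where 27.2%, 32.0% and 32.8% of all genes were called higher. Their median log2 fold changes were 0.27, 1.55 and 1.83, beside 0.00, 0.02 and 0.01 over all genes. Their summed level was 2695 to 2847 CPM in the DMSO libraries, 3060 to 3139 in EVER, 5701 to 6593 in SGI and 7138 to 7403 in COMB. The groups did not overlap in this sum, and SGI 3 was the highest SGI library. In EVER 1 of the 48 targets exceeded the STAT2 log2 fold change of 0.90, whereas 12 exceeded its value in SGI and 15 in COMB.

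Among named targets, OAS2, an enzyme that senses double-stranded RNA, rose 16.5-fold in COMB (log2 4.05 ± 0.12) and IFI44L 9.86-fold (3.30 ± 0.08). ISG15, a ubiquitin-like modifier, gave log2 0.27 ± 0.06 in EVER, 1.96 ± 0.06 in SGI and 2.60 ± 0.06 in COMB. IFIT1, which binds foreign RNA caps, gave 0.25 ± 0.06, 2.20 ± 0.06 and 2.36 ± 0.06 in the same order. DDX60 gave 0.86 ± 0.06, 1.71 ± 0.06 and 2.09 ± 0.06, and IFIT2 gave 0.78 ± 0.06, 1.90 ± 0.06 and 2.10 ± 0.06, so both had EVER changes close to that of STAT2. OAS1 (3.28 ± 0.09), IFIH1 (2.22 ± 0.07), IFIT3 (2.07 ± 0.05), DDX58 (1.97 ± 0.05) and IFI35 (1.89 ± 0.06) were also higher in COMB in log2. These genes were chosen for a log2 fold change of 1 or more in size in any group against DMSO and ranked by their COMB p. Passing in COMB was thus fixed by the choice. All of them also passed in EVER and SGI by edgeR, but these groups entered the choice and share the DMSO libraries, so this is no separate support.

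Of 27 tested genes listed as gamma-interferon and IRF1 targets, 14 were higher and 6 lower in EVER, 21 and 1 in SGI, and 22 and 3 in COMB, beside 27.2% and 29.2%, 32.0% and 30.6%, and 32.8% and 33.4% of all genes. The median log2 fold changes were 0.26, 0.59 and 0.75. WARS1, a tRNA synthetase induced by gamma-interferon, rose by 0.14 ± 0.04 in EVER, 1.02 ± 0.04 in SGI and 1.47 ± 0.04 in COMB. This list was typed by hand like the others and some of its genes also respond to type I interferon.

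The inhibitors of the pathway did not move together in SGI and COMB, and in EVER most of those called were lower. Of 16 tested negative regulators other than SOCS1, 1 was higher and 7 lower in EVER, 4 and 5 in SGI, and 4 and 6 in COMB, and their median log2 fold changes were -0.15, 0.04 and -0.09. Of all genes, 27.2% were called higher and 29.2% lower in EVER. The shares in SGI and COMB were near those of all genes, 32.0% and 30.6% in SGI and 32.8% and 33.4% in COMB. The genes named here from this list and the next 3 were chosen after their values were seen. USP18, an interferon-induced protease that blocks IFNAR2, fell by 0.33 ± 0.10 in EVER and rose by 1.63 ± 0.09 in SGI and 1.996 ± 0.09 in COMB, with an interaction of 0.69 ± 0.13 (edgeR adjusted p = 2.5e-04). SOCS3, the inhibitor of gp130 receptors, gave -0.38 ± 0.08, -0.82 ± 0.08 and -0.71 ± 0.08. CISH, an inhibitor of STAT5 signalling, gave -1.08 ± 0.17 in COMB (edgeR adjusted p = 1.6e-05), while its values of -0.22 and -0.23 in EVER and SGI did not pass. The phosphatase PTPN11 gave -0.39 ± 0.05, -0.44 ± 0.05 and -0.49 ± 0.05.

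Other receptor chains, STATs and IRFs changed in both directions, and the counts of these small lists are to be read beside the 27.2% to 33.4% of all genes called in each direction against DMSO. Of the 4 other interferon receptor chains, 1 was higher and 1 lower in EVER, and 1 was lower in SGI and in COMB. The gamma receptor chain IFNGR1 gave -0.16 ± 0.06, -0.27 ± 0.06 and -0.28 ± 0.06 in EVER, SGI and COMB, and IFNGR2 gave 0.34 ± 0.05 in EVER. Of 7 other tested JAKs and STATs, 3 were higher and 1 lower in EVER, 4 and 1 in SGI, and 5 and 1 in COMB. STAT5A gave 1.30 ± 0.26, 1.07 ± 0.27 and 1.37 ± 0.26, while STAT3, the main STAT of gp130 receptors, gave -0.15 ± 0.04, -0.11 ± 0.04 and -0.37 ± 0.04. The level of STAT5A was low, with 21 to 26 counts a library in DMSO, where STAT3 had 5230 to 5914. Of 4 other tested IRFs, 1 was higher and 2 lower in EVER, 2 and 1 in SGI, and 2 and 2 in COMB. IRF5 gave 0.47 ± 0.10, 1.15 ± 0.10 and 1.37 ± 0.10, and IRF3, the constitutive sensor-activated factor, gave -0.34 ± 0.05, -0.23 ± 0.05 and -0.31 ± 0.05.

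**Figure D5:**
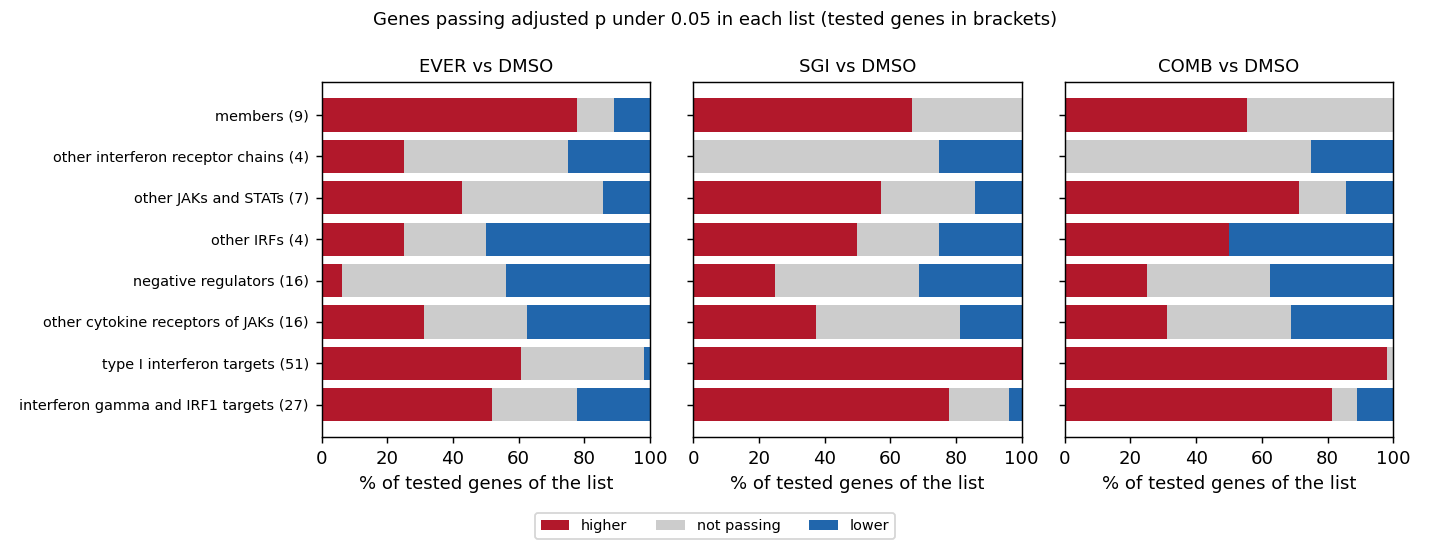
Share of the tested genes of each hand-written list that were higher, lower or did not pass an adjusted p of 0.05 in EVER, SGI and COMB against DMSO, with the number tested in brackets. The 51 type I targets include STAT2, IRF9 and IRF7, and the bar named members holds the 9 pathway genes described. The type I target bars are higher in full in SGI, whereas the 16 negative regulators split between directions.

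Profiles most like those of STAT2, IRF9 and IRF1 were ranked by Pearson correlation of log2 CPM over the 12 libraries among 11456 genes. STAT2 was closest to IFIT2 (r = 0.998), ITGA3 (0.996) and RNF213 (0.996). IRF9 was closest to LCN2 (r = 0.994), ZNFX1 (0.993) and HELZ2 (0.993). IRF1 was closest to SHISA9 (r = 0.995), HIVEP2 (0.984) and ITGA3 (0.984). The 12 libraries fall into 4 groups, so these values describe shared group differences and carry no test.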

How the data were processed

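The authors deposited raw counts per gene symbol and FPKM values (scaled by gene length and depth) for 12 libraries of 786-O cells. The aligner and counter are not given in the sources used here. The submitters' processing notes name the mouse builds GRCm38 and mm10, although the symbols are human. The paper describes TRIzol and a stranded TruSeq kit, and the labels RNeasy and SMARTer. The count fit used edgeR 4.0.16 in R 4.3.3. The function filterByExpr kept 12841 genes (4244 were not tested), TMM scaling was applied, and all 4 groups entered one quasi-likelihood fit with Benjamini-Hochberg adjustment over all tested genes. Same-numbered libraries were not treated as pairs in the main fit. Deviations from the group means correlated at -0.18 to 0.04 between same-numbered libraries and at -0.14 to 0.23 between others, highest for DMSO 1 with SGI 3. With so few libraries a group, these values cannot show whether libraries were paired. Alternatives were DESeq2 1.42.0, limma 3.58.1 on log2 of FPKM plus 1 or 0.1, upper-quartile factors, other filters, 2-group fits, a replicate block and leaving out libraries. On simulated data for COMB against DMSO, 191 of 200 changed genes were recovered with 10 false calls among 12758 genes. Only those 200 genes were changed, by larger folds than those of JAK1, TYK2 and IFNAR1. The simulation therefore does not show how reliable such small calls are, or calls in data where many genes change.

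The members and lists were chosen with earlier results of these data known. Genes named by rule were the 9 members, the ligands with any count and the 3 most similar profiles of STAT2, IRF9 and IRF1. Up to 12 pathway genes with the smallest COMB p were also named. These needed an adjusted p under 0.05 and a log2 fold change of 1 or more in size in any group against DMSO. Their mean had to be at least 50 counts. Other genes named from the lists of inhibitors, receptors, STATs and IRFs were chosen after their values were seen. Some genes of these lists entered every count and are not reported here by name. Precision rested on the spread of 3 libraries, and 95% intervals are those of the fit.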

Additional observations from a re-analysis of the deposited data

Results flagged for a closer look

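For 5 genes the COMB log2 fold change was called below the sum of those of the single drugs, by the edgeR interaction term. Of all genes, 22.1% were called lower by this term. The everolimus dose in EVER was 5 µM by the sample labels and the paper, and 10 µM by the protocol. In COMB it was 5 µM. A difference in dose therefore cannot be told apart from an interaction of the drugs. In log2, the interaction was -0.60 for STAT2, whose EVER effect was 0.90 without SGI-1027 and 0.29 with it. In CPM the STAT2 effects added up within error (a difference of 2.51 ± 7.08), so the shortfall of STAT2 held on the log2 scale only. The log2 interaction was -0.38 for JAK1 and -0.31 for IFNAR1. Their EVER effects of 0.13 and 0.17 became -0.25 and -0.13 in the presence of SGI-1027. The interaction was -0.19 for IRF1 and -0.19 for IFNAR2, and both of these calls were lost when single libraries were left out.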

How the results depend on the processing

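Over all alternatives, 1210 values kept their direction and side of the threshold, 37 passed newly, 57 no longer passed and 10 changed sign, all of the latter in values that had not passed. These were IFNAR1 and IFNAR2 in COMB against DMSO under upper-quartile factors (0.013 and 7.4e-04), which shifted the median of all genes in COMB by 0.06, IFNAR2 in SGI against EVER without SGI 3 (0.026, within -0.048 to 0.026 over single libraries) or without DMSO 1 and SGI 3 (0.025), IRF1 in COMB against SGI with at least 10 counts in every library (-8.1e-04), with only the 2 groups (-0.0024), without SGI 1 (-0.028), SGI 2 (-6.1e-04) or COMB 3 (-0.048, within -0.048 to 0.035), and the IRF7 interaction on log2(FPKM + 1) (0.044). The number of the 9 genes lower in COMB than in EVER was 1, in place of 2, without the filter and with limma on FPKM plus 1 or 0.1. The number higher in COMB than in SGI was 2, in place of 1, with DESeq2, upper-quartile factors, no filter, FPKM plus 1 or only the 2 groups, and 3 without DMSO 1 and SGI 3, a setting chosen after seeing the data. That setting gave 1 gene past the study's cut-off in EVER, in place of 0. FPKM plus 1 gave 1 such gene in SGI against EVER, in place of 2. No filter gave 3 called negative interactions, in place of 5. Leaving out single libraries gave 0 to 1 genes lower in COMB than in DMSO and 1 to 2 lower in COMB than in EVER. It gave 1 to 3 higher and 1 to 3 lower in COMB than in SGI. It also gave 0 to 1 past the cut-off in EVER and 3 to 6 called negative interactions. In the pathway lists, 7 to 12 genes were then lower in COMB than in EVER, and 14 without DMSO 1 and SGI 3. With the replicate block, the IFNAR1 value in COMB against SGI was -0.13 with an edgeR adjusted p of 0.0745, and no other call of the 9 genes changed. Where a call changed, the cause was not tested.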

Other observations

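Other cytokine receptors that signal through JAKs gave 5 higher and 6 lower of 16 tested genes in EVER, 6 and 3 in SGI, and 5 and 5 in COMB, where 27.2% and 29.2%, 32.0% and 30.6%, and 32.8% and 33.4% of all genes were called, so most of these shares were near those of all genes. The genes named here were chosen after their values were seen. IL7R, the interleukin 7 receptor chain, gave log2 fold changes of 0.19 ± 0.05, 0.13 ± 0.05 and 0.60 ± 0.05 in EVER, SGI and COMB, with an interaction of 0.28 ± 0.08 (edgeR adjusted p = 0.0056). LIFR, the receptor of leukemia inhibitory factor, gave -0.45 ± 0.06, -0.58 ± 0.06 and -0.72 ± 0.06, with an interaction of 0.31 ± 0.08 (edgeR adjusted p = 0.0063). IL6R gave -1.27 ± 0.24 in EVER, -0.70 ± 0.23 in SGI and -1.00 ± 0.23 in COMB. IL6ST, the gp130 chain shared by the LIF and interleukin 6 receptors, gave 0.01, 0.00 and 0.01 and did not pass in any group.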
